A study of Mus musculus with 4 samples.

Results

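The miR-10, miR-99/100 and miR-125 families were examined in small RNA from exosomes, the vesicles released by cells, of BV2 cells, an immortalized mouse microglial line. The members were taken by name as the 5p arms mmu-miR-10a-5p, mmu-miR-10b-5p, mmu-miR-99a-5p, mmu-miR-99b-5p, mmu-miR-100-5p, mmu-miR-125a-5p and mmu-miR-125b-5p. All 7 names were found among the 603 miRNAs listed, and all 7 passed the minimum of 10 reads over the 4 libraries, as did 376 of the 603. The control group held 2 libraries of wild-type cells kept at 37 °C for 2 h. The heatstroke (HS) group held 2 libraries of the same wild-type line heated at 42 °C for 2 h and, by the series' description, returned to 37 °C for 12 h. An earlier harvest is stated in another place by the study, so the recovery time is uncertain. Nothing in the labels says that the libraries of a group came from separate cultures, so p-values measure only the spread between these libraries, which may be technical. Where values of a group are given as a pair, replicate 1 comes first.

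MiR-10 and miR-99/100 are branches of 1 ancient miRNA family, and the genes of miR-10a and miR-10b lie inside the Hox clusters, which pattern the body axis. MiR-125 is the vertebrate counterpart of lin-4, the worm miRNA that times larval development. Genes of miR-99/100 and miR-125 flank a let-7 gene in conserved clusters. A miRNA finds its targets mainly through its seed, taken here as bases 2 to 8 counted from the 5′ end. MiR-99 and miR-100 are known for restraining mTOR signalling, and miR-125 for acting on apoptosis regulators and on inflammatory signalling in macrophages.

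The mature sequences are shown because 1 base separates members whose levels differed widely. They come from RefSeq (GRCm38.p6), where all 7 names were matched, and the capitals mark the seed.
miR-10a-5p: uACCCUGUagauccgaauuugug
miR-10b-5p: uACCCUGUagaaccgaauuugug
miR-99a-5p: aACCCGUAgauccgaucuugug
miR-100-5p: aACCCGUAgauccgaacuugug
miR-99b-5p: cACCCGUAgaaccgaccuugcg
miR-125a-5p: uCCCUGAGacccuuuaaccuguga
miR-125b-5p: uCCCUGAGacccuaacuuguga

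The members fall into 3 seed groups. MiR-10a-5p and miR-10b-5p share the seed ACCCUGU and differ by U12A, with the base of miR-10a-5p first and positions counted from the 5′ end. MiR-99a-5p, miR-99b-5p and miR-100-5p share ACCCGUA. MiR-99a-5p differs from miR-100-5p by U16A alone and from miR-99b-5p by A1C, U11A, U16C and U21C. MiR-125a-5p and miR-125b-5p share CCCUGAG and their first 13 bases. Members are 22 to 24 bases long, so their levels per miRNA can be set side by side with little effect of length. How the authors assigned reads with mismatches is not given in the sources used here, so reads could pass between names that differ by 1 base.

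On GRCm38, Mir10a lies at chr11:96317165-96317274 between annotated genes, and Mir10b at chr2:74726070-74726137 in introns of Hoxd3 and Hoxd4. Mir99a, at chr16:77598936-77599000, lies with Mirlet7c-1 and Mir125b-2 in introns of the non-coding gene Mir99ahg, and these 3 genes span 47408 bases. Mir99b, at chr17:17830188-17830257, lies with Mirlet7e and Mir125a within 692 bases of Spaca6, where Mir99b is intronic and Mir125a overlaps an exon. Mir100, at chr9:41531425-41531504, lies in an intron of the non-coding gene 3110039I08Rik on the same strand with Mirlet7a-2 and Mir125b-1, over 50578 bases, and on the opposite strand an exon of the lincRNA Gm48742 covers it. All these miRNA genes are on the plus strand in GENCODE M21. MiR-125b-5p has the same mature sequence at chr9:41581940-41581961 and chr16:77646279-77646300, so its reads cannot be assigned to either gene.

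The deposited values were read counts divided by 1 size factor per library, here called normalized counts, and whole reads were recovered from them. Reads on all listed miRNAs totalled 96516 and 121503 in control, 42091 and 113966 in HS. HS replicate 1 stood apart, with 228 miRNAs detected against 420 to 444 in the other libraries, and results that rest on it are given with and without it. Of the 7 myeloid miRNAs checked, miR-146a-5p, miR-21a-5p, miR-142a-5p and miR-155-5p had 26 to 4666 reads in every library. By comparison, miR-223-3p, miR-142a-3p and miR-150-5p had at most 18 in any library. In exosomes, fewer vesicles of a kind and less of a miRNA per vesicle cannot be told apart. Intervals quoted for single libraries are 95% intervals for counting error only (exact Poisson for counts, Wilson for shares), since amplified reads are not independent molecules.

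MiR-99a-5p dominated the members. In normalized counts it was nearly level over the 4 libraries, whereas the other 6 differed by 4.06-fold to 52.7-fold between their highest and lowest library. Scaled by the total of listed reads, miR-99a-5p differed by 1.40-fold. Of the listed miRNA reads, the members held 5.56% and 4.09% in control, 3.12% and 4.65% in HS. The mean share was 4.82% ± 1.04 in the control group and 3.89% ± 1.09 in the HS group (SD, n = 2), a difference of -0.935 percentage points that was less than the spread between replicates. It was -0.166 without HS replicate 1, -0.200 without control replicate 1, -1.67 without control replicate 2 and -1.70 without HS replicate 2. The other 6 members together made up 31.4% and 13.01% of the members' reads in control, 6.25% and 11.9% in HS, so that control replicate 2 and HS replicate 2 were near each other.

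Without miR-99a-5p, the other 6 members held 1.74% (1.66% to 1.83%) of the listed reads in control replicate 1. Their share was 0.532% (0.492% to 0.574%) for control replicate 2, 0.554% (0.512% to 0.598%) for HS replicate 2 and 0.195% (0.157% to 0.242%) for HS replicate 1. The intervals of control replicate 2 and HS replicate 2 overlapped, while control replicate 1 and HS replicate 1 lay on either side of them.

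**Figure D1:**
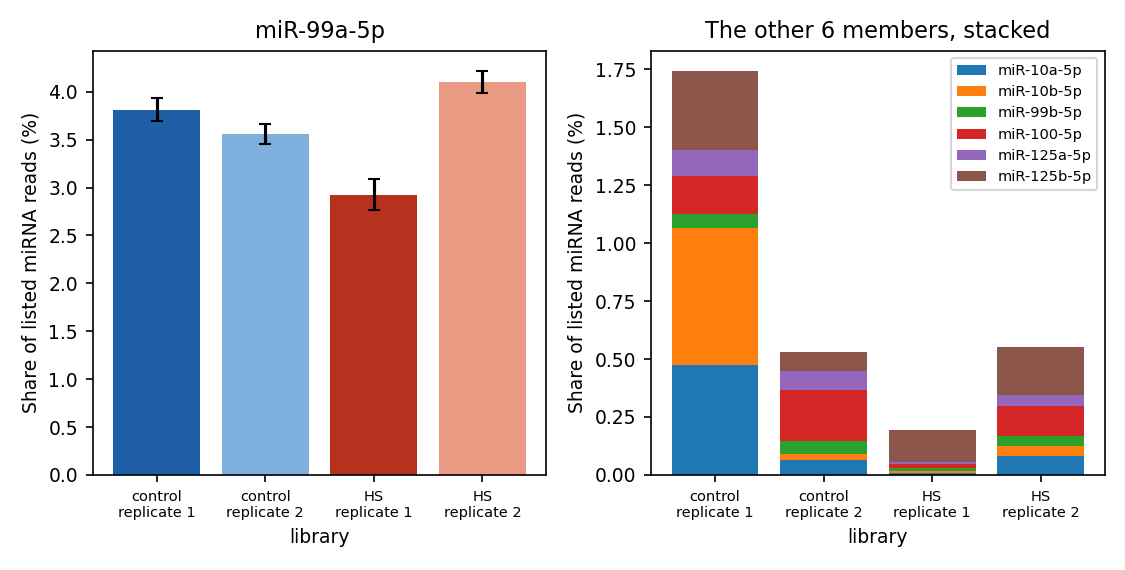
Share of the listed miRNA reads (%) of each library held by miR-99a-5p (left, bars with 95% Wilson intervals) and by the other 6 members stacked (right). MiR-99a-5p held 2.92% to 4.10% in every library, while the stack of the others ran from 0.195% in HS replicate 1 to 1.74% in control replicate 1.

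MiR-99a-5p had 3680 and 4319 reads in control, 1230 and 4674 in HS. As normalized counts these were 3076 (2977 to 3177) and 2927 (2841 to 3016) in the control group, and 2974 (2810 to 3145) and 3101 (3013 to 3191) in the HS group. The groups overlapped, and the highest library was 1.06-fold above the lowest. The means were 3002 ± 105 and 3038 ± 89.8 (SD, n = 2). The log2 fold change of HS over control was 0.02 (standard error (SE) 0.71, 95% interval -1.90 to 1.93, adjusted p = 0.998 from limma), and its sign turned when libraries were scaled by the total of listed reads (-0.089). The wide interval, for which limma borrows spread from all miRNAs, does not show that the groups were equal. Among the 157 miRNAs with at least 100 reads, miR-99a-5p had the smallest SD of log2 normalized counts over the 4 libraries (0.04, against a median of 0.71). This depends on the size factors: scaled by the total of listed reads instead, its SD was 0.21, the fifth smallest. It ranked 5 by reads in 3 libraries and 11 in HS replicate 1.

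MiR-100-5p, which differs from miR-99a-5p by the single base given above, did not follow it. It had 157 and 267 reads in control, 7 and 147 in HS. The normalized counts were 131 (112 to 153) and 181 (160 to 204) in the control group, and 16.9 (6.81 to 34.9) and 97.5 (82.4 to 115) in the HS group. Both HS libraries lay below both control libraries, but HS replicate 2 was much nearer to the control group than to HS replicate 1. The mean in the control group was 2.73-fold that in the HS group, or 1.60-fold without HS replicate 1. Its log2 fold change was -1.88 (SE 1.11; limma, adjusted p = 0.621), or -0.65 without HS replicate 1 and -3.11 without HS replicate 2.

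MiR-99b-5p was the least abundant member, with 56 and 69 reads in control, 4 and 49 in HS. Its normalized count was 46.8 in both control libraries (35.4 to 60.8 and 36.4 to 59.2), 9.67 (2.64 to 24.8) in HS replicate 1 and 32.5 (24.1 to 43.0) in HS replicate 2. The groups did not overlap, yet the counting interval of HS replicate 2 overlapped those of both control libraries. The control mean was 2.22-fold the HS mean, or 1.44-fold without HS replicate 1. Its log2 fold change was -1.34 (SE 0.91; limma, adjusted p = 0.621), or -0.51 without HS replicate 1 and -2.16 without HS replicate 2.

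MiR-10a-5p and miR-10b-5p were high in control replicate 1 only. MiR-10a-5p had 457 and 76 reads in control, 3 and 93 in HS. Its normalized counts were 382 (348 to 419) and 51.5 (40.6 to 64.5) in the control group, and 7.25 (upper limit 21.2) and 61.7 (49.8 to 75.6) in the HS group. The groups overlapped, since HS replicate 2 lay above control replicate 2. The means were 217 ± 234 and 34.5 ± 38.5 (SD, n = 2), so the spread within each group exceeded its mean. On the log2 scale HS over control was -2.64 (SE 1.57; limma, adjusted p = 0.621), or -1.18 without HS replicate 1 and -1.21 without control replicate 1. It was -4.07 without control replicate 2 and -4.10 without HS replicate 2.

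MiR-10b-5p had 573 and 33 reads in control, 5 and 51 in HS. Its normalized counts were 479 (441 to 520) and 22.4 (15.4 to 31.4) in the control group, and 12.1 (3.93 to 28.2) and 33.8 (25.2 to 44.5) in the HS group. The control libraries differed by 21.4-fold, more than any other member did within a group. The control mean of 251 ± 323 was 10.9-fold the HS mean of 23.0 ± 15.4 (SD, n = 2), and without control replicate 1 the ratio was 0.974. The fitted log2 fold change was -2.31 (SE 1.71; limma, adjusted p = 0.621), and it was -0.13 without control replicate 1, -4.49 without control replicate 2 and -1.60 without HS replicate 1. The ratio of miR-10a-5p to miR-10b-5p, which no scaling of a library can move, was 0.798 and 2.30 in control, 0.600 and 1.82 in HS. The miR-10 seed group as a whole held 1.07% and 0.0897% of the listed reads in control, 0.0190% and 0.126% in HS.

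The miR-125 pair parted in a different way. MiR-125a-5p had 110 and 101 reads in control, 5 and 55 in HS. Its normalized counts were 91.9 (75.6 to 111) and 68.5 (55.8 to 83.2) in the control group, and 12.1 (3.93 to 28.2) and 36.5 (27.5 to 47.5) in the HS group. The groups did not overlap, and no counting interval of an HS library reached one of a control library. The control mean was 3.30-fold the HS mean, or 2.20-fold without HS replicate 1. With a log2 fold change of -1.86 (SE 0.89; limma, adjusted p = 0.617), it had the smallest p of the members, but the difference did not pass the test. The log2 fold change was -1.10 without HS replicate 1 and -2.62 without HS replicate 2.

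MiR-125b-5p, the product of 2 genes, had 329 and 100 reads in control, 58 and 236 in HS. Its normalized counts were 275 (246 to 306) and 67.8 (55.1 to 82.4) in the control group, and 140 (106 to 181) and 157 (137 to 178) in the HS group. Both HS libraries lay between the control libraries, and in normalized counts HS replicate 1 was within counting error of HS replicate 2. As a share of listed reads, HS replicate 1 (0.138%, 0.107% to 0.178%) was instead below HS replicate 2 (0.207%, 0.182% to 0.235%). The log2 fold change was 0.11 (SE 0.99; limma, adjusted p = 0.972), with its direction turned in edgeR (-0.18), in DESeq2 (-0.21) and without control replicate 2 (-0.89). Without control replicate 1 it was 1.12. There were 2.99 and 0.990 reads of miR-125b-5p per read of miR-125a-5p in control, 11.6 and 4.29 in HS.

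**Figure D2:**
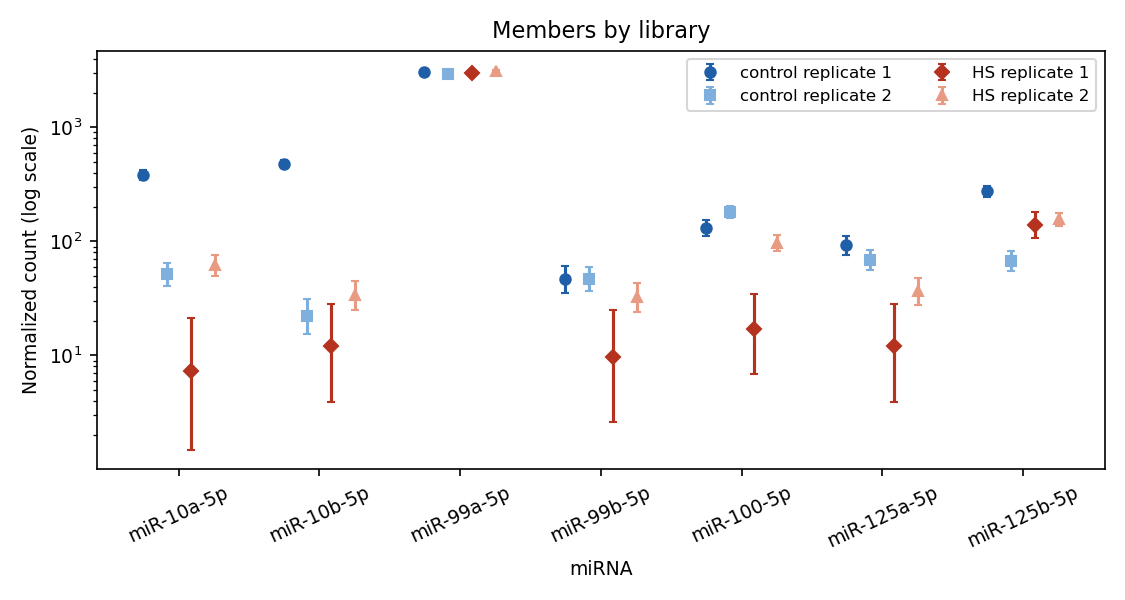
Normalized count (log scale) of each member in the 4 libraries, with exact 95% Poisson intervals. MiR-99a-5p sat between 2927 and 3101 in every library, HS replicate 1 was lowest for 5 members, and control replicate 1 was far above the rest for miR-10a-5p and miR-10b-5p.

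Across the table, no member met the study's criterion in limma, which asks for over 2-fold and p under 0.05 before adjustment. Of all 376 tested miRNAs 31 met it, or 8.24%, and 6.65% met it with the lower level in the HS group. After adjustment 0 miRNAs of any kind had an adjusted p under 0.05 in limma, edgeR or DESeq2, and 31 had an unadjusted p under 0.05 in limma, none of them a member. Both HS libraries lay below both control libraries for 3 of the 7 members (42.9%), miR-99b-5p, miR-100-5p and miR-125a-5p, against 32.4% of all tested miRNAs. No member had both HS libraries above both control libraries, against 12.5% of all tested. With so few members, these shares do not set the families apart from the rest.

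A log2 fold change under -1 was found for 5 of the 7 members (71.4%), against 40.2% of all tested miRNAs. The median log2 fold change of the members was -1.86, while that of all tested miRNAs was itself -0.65. The median of all miRNAs moved with the scaling, to -0.38 by the upper quartile, -0.63 by TMM and -0.93 by the total of listed reads. Relative to the median of all miRNAs, miR-10a-5p differed by -1.99, miR-10b-5p by -1.66, miR-100-5p by -1.23, miR-125a-5p by -1.21 and miR-99b-5p by -0.68. On the same scale miR-99a-5p lay 0.67 and miR-125b-5p 0.77 above it. Without HS replicate 1 the medians were -0.65 for the members and -0.17 for all tested miRNAs.

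Count tests on the recovered reads gave another answer for the miR-10 pair. In edgeR's quasi-likelihood test miR-10a-5p (log2 fold change -2.42, adjusted p = 0.379) and miR-10b-5p (-3.29, adjusted p = 0.150) met the study's criterion without passing adjustment, and of all tested miRNAs 32, or 8.51%, met it in that test. DESeq2's Wald test gave the same 2 names (-2.62, adjusted p = 0.611, and -3.42, adjusted p = 0.409), with 29 miRNAs, or 7.71%, called in all. Without control replicate 1, a setting chosen after the data had been seen, neither test called a member, but the control group was then 1 library, assumed to vary like the HS pair, and calls over all miRNAs were 9 in edgeR and 13 in DESeq2. The log2 fold changes were then -0.26 and 0.35 in edgeR and -0.60 and 0.01 in DESeq2 for miR-10a-5p and miR-10b-5p. Without HS replicate 2, miR-99b-5p, miR-100-5p and miR-125a-5p met the criterion in limma, as did 30.1% of all tested miRNAs. The HS group was then replicate 1 alone, assumed to vary like the control pair.

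**Figure D3:**
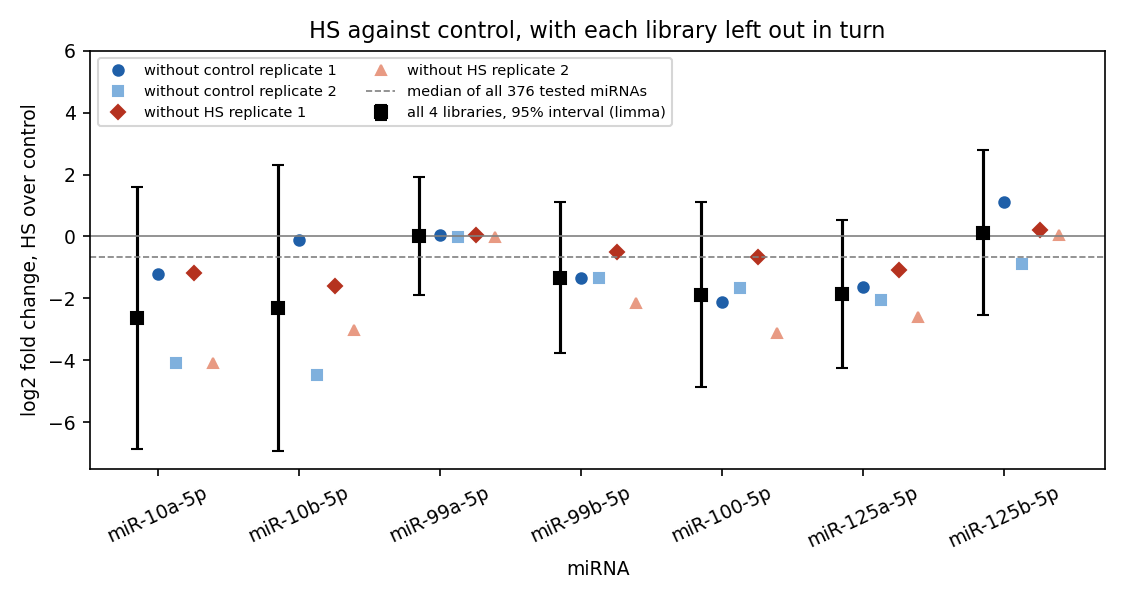
Log2 fold change of HS over control for each member in limma (squares, 95% intervals) and with each library left out in turn (coloured markers); the dashed line is the median of all tested miRNAs, -0.65. Every 95% interval spans 0, and the values without control replicate 1 are nearer 0 for the miR-10 pair. Those without HS replicate 1 are nearer 0 for the miR-10 pair too, and for miR-99b-5p, miR-100-5p and miR-125a-5p.

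Set against miR-99a-5p within the same library, 5 of the other 6 members had their highest ratio in HS replicate 1, and miR-125b-5p did not. There were 23.4 and 16.2 reads of miR-99a-5p per read of miR-100-5p in control, 176 and 31.8 in HS. Per read of miR-99b-5p the numbers were 65.7 and 62.6 in control, 308 and 95.4 in HS. Per read of miR-125a-5p they were 33.5 and 42.8 in control, 246 and 85.0 in HS. These 3 ratios were higher in both HS libraries than in both control libraries. They belong to the members whose normalized counts were lower in both HS libraries, an order that 32.4% of all tested miRNAs had. How many other miRNAs had either order of ratios to miR-99a-5p was not counted. For miR-125b-5p there was no such order, at 11.2 and 43.2 in control, 21.2 and 19.8 in HS. The miR-10 pair had its lowest ratios in control replicate 1, 8.05 for miR-10a-5p and 6.42 for miR-10b-5p.

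At the normalized level of HS replicate 2, HS replicate 1 would have held 40.3 reads of miR-100-5p, where 7 were counted (2.81 to 14.4). For miR-10a-5p 25.5 reads would have been expected and 3 were counted (0.619 to 8.77). The expected numbers were 15.1 for miR-125a-5p, 14.0 for miR-10b-5p and 13.4 for miR-99b-5p, and the upper limits of the counts were 11.7, 11.7 and 10.2. For miR-99a-5p, 1283 reads would have been expected and 1230 were counted (1162 to 1301). For miR-125b-5p the numbers were 64.8 and 58 (44.0 to 75.0). The expected number thus lay above the upper limit of the count for 5 members and inside the interval for the other 2. It carries counting error of its own, and the intervals of the HS replicates' normalized counts were fully apart only for miR-100-5p and miR-10a-5p. Both results depend on the size factors. As shares of listed reads, the interval of HS replicate 1 lay below that of HS replicate 2 for every member. For miR-99a-5p these intervals were 2.77% to 3.09% and 3.99% to 4.22%.

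**Figure D4:**
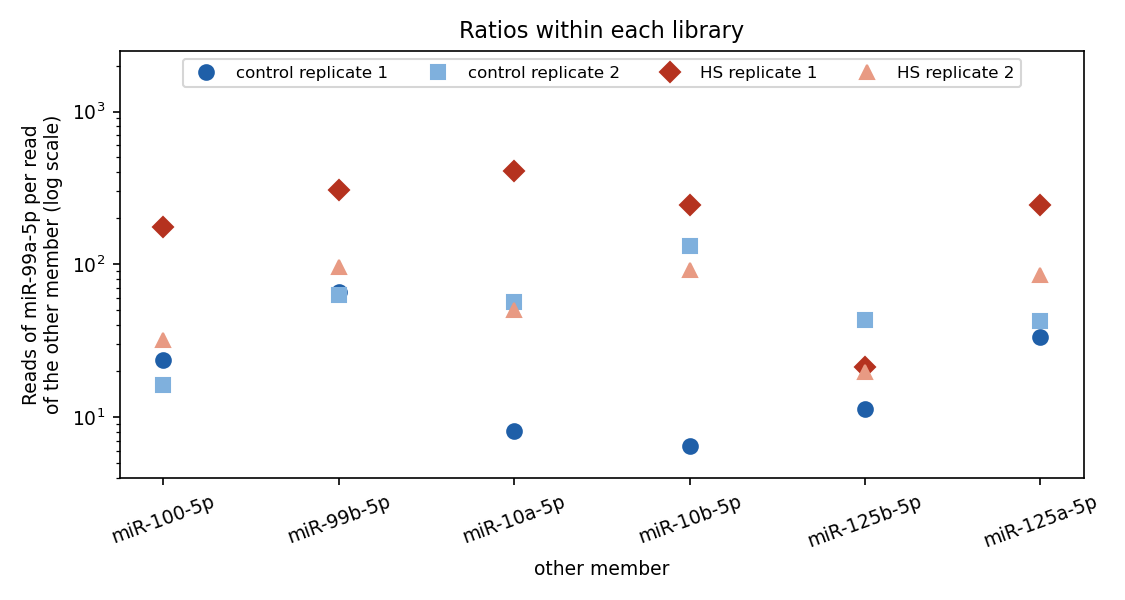
Reads of miR-99a-5p per read of each other member (log scale) within each library. HS replicate 1 has the highest ratio for every member except miR-125b-5p, at 176 to 410.

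Opposite arms of the same precursors were near the limit of detection. Names of 6 of the 8 opposite arms were listed. MiR-99b-3p had 4 and 3 reads in control, 0 and 6 in HS. MiR-10a-3p had 6 and 1 reads in control, 0 and 1 in HS, with the highest count in control replicate 1, as for its 5p arm. MiR-10b-3p and miR-99a-3p had 2 and 1 reads in control replicate 1 and 0 in the other libraries (a floor of 3 reads). The 3p arms are the part of miR-125b that tells its genes apart. MiR-125b-2-3p had 2 and 19 reads in control and none in either HS library (log2 fold change -2.61, adjusted p = 0.585 from limma). The 5p arm was lowest in the library where this arm was highest. MiR-125b-1-3p had 1 and 0 reads in control, 3 and 0 in HS.

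The let-7 miRNAs encoded in the same clusters were next set against their neighbours. Let-7c-5p, beside miR-99a, gave 1.93 and 3.83 reads per read of miR-99a-5p in control, 4.66 and 3.02 in HS. It is also made from a gene on another chromosome. Let-7e-5p, in the compact cluster with miR-99b and miR-125a, had 32 and 9 reads in control, 9 and 12 in HS. In HS replicate 1 there were 0.444 reads of miR-99b-5p and 0.556 of miR-125a-5p per read of let-7e-5p, against 1.75 to 11.2 in the other libraries. There were 0.509 to 0.891 reads of miR-99b-5p per read of miR-125a-5p in every library. In HS replicate 1 all these ratios rest on few reads, 4 of miR-99b-5p, 5 of miR-125a-5p and 9 of let-7e-5p. Let-7a-5p, which has a gene beside miR-100 and others elsewhere, gave 85.1 reads per read of miR-100-5p in HS replicate 1 and 7.46 to 14.4 in the other libraries. The log2 fold changes of let-7c-5p, let-7e-5p and let-7a-5p were 0.48, 0.03 and -0.39, and their adjusted p-values were 0.809, 0.998 and 0.845 from limma.

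MiR-351-5p, a rodent miRNA that carries the miR-125 seed and is encoded on the X chromosome, was also listed. The names miR-6367 and miR-6394 carry the same seed and were not examined here. It had 57 and 32 reads in control, 9 and 46 in HS, or normalized counts of 47.6, 21.7, 21.8 and 30.5. Both HS libraries lay between the control libraries, as for miR-125b-5p, but HS replicate 1 was within counting error of control replicate 2. As a share of listed reads, HS replicate 1 (0.0214%) was instead below control replicate 2 (0.0263%). The log2 fold change was -0.31 (SE 0.82, limma, adjusted p = 0.886). There were 3.13 to 6.44 reads of miR-125b-5p per read of miR-351-5p over the 4 libraries.

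The miRNAs most like the members in pattern were found from the distance between log2 values over the 4 libraries, each centred on its own mean. The mean profile of the members was 1.37 and 0.05 in control, -1.43 and 0.02 in HS. The nearest of 150 other miRNAs with at least 100 reads were miR-103-3p (distance 0.32), miR-30a-5p (0.52), let-7g-5p (0.57), miR-16-5p (0.59) and miR-30e-5p (0.71), against a median distance of 2.33. MiR-103-3p, for example, had 374 and 186 reads in control, 24 and 196 in HS. Among the members, miR-125a-5p (0.78) and miR-99b-5p (0.95), which share a cluster, were nearest to the mean, and miR-10b-5p was farthest (2.33). Every member was thus farther from the mean than the 5 miRNAs named above, although the mean is made from the members. The mean profile is therefore not a close description of the single members. Likeness over 4 libraries is a description, and the points share the depth of each library.

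**Figure D5:**
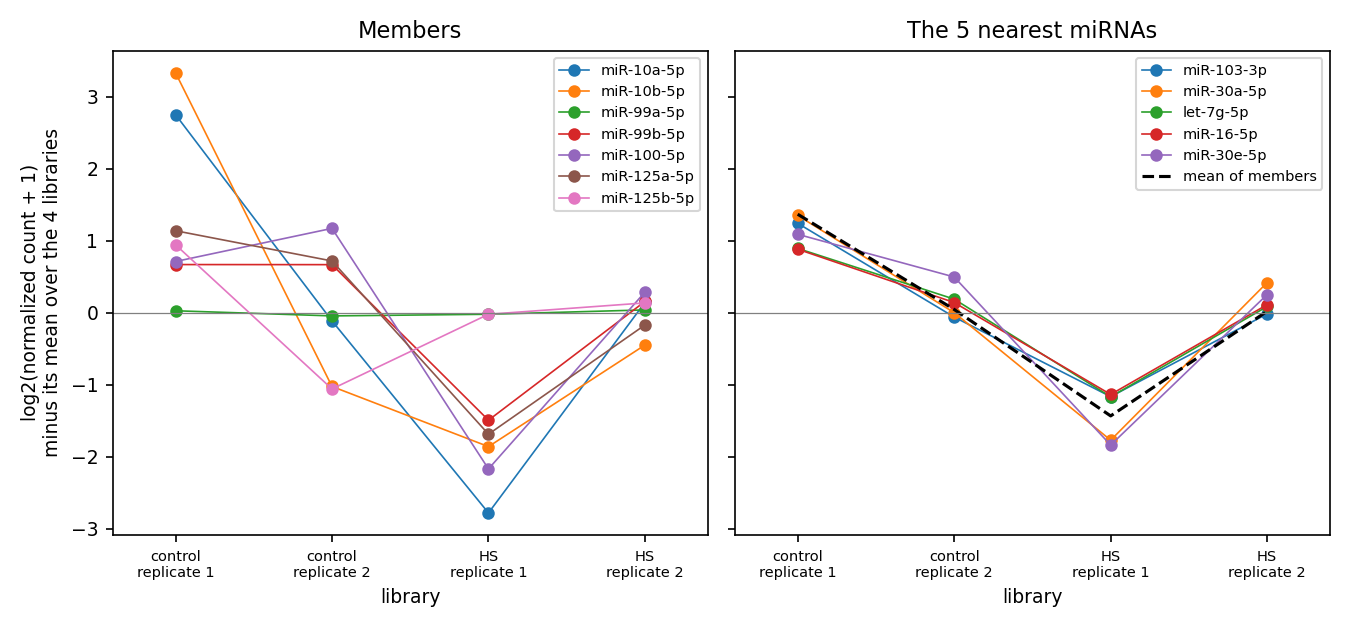
Log2(normalized count + 1) minus its mean over the 4 libraries for the members (left) and for the 5 miRNAs nearest to the members' mean (right, dashed line); lines join the values of 1 miRNA and carry no order. MiR-99a-5p stays within 0.05 of its mean, and HS replicate 1 is the lowest library for 5 of the members. It is also the lowest for all 5 nearest miRNAs, which follows from choosing them by closeness to the members' mean.

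The summed stromal and myeloid marker lists were each highest and lowest in the same libraries as the 6 members without miR-99a-5p. The 14 stromal, endothelial and epithelial names held 13 distinct sets of reads, since miR-199a-3p and miR-199b-3p had the same reads. Their summed normalized counts were 3704 and 1618 in control, 24.2 and 1062 in HS. All 13 had log2 fold changes below 0 (median -2.84, or -1.04 without HS replicate 1), against 65.4% of all tested miRNAs. Of the 13, 0 met the study's criterion, and 8 had no read in HS replicate 1, among them miR-199a-3p, miR-200c-3p and miR-145a-5p. Like the 6 members without miR-99a-5p, this list was highest in control replicate 1 and lowest in HS replicate 1, and so was the myeloid list. Within the stromal list, miR-205-5p, miR-214-3p and miR-203-3p were instead highest in control replicate 2. The 7 myeloid miRNAs summed to 5470 and 2439 normalized counts in control, 1714 and 2873 in HS. Of these, 6 had log2 fold changes below 0, and their median of -0.65 was that of all tested miRNAs (-0.65). The order of the myeloid sum came largely from miR-21a-5p, with 4666 and 1124 reads in control, 114 and 1230 in HS. MiR-155-5p, miR-142a-3p and miR-150-5p were also highest in control replicate 1. By contrast, miR-146a-5p was highest in HS replicate 2, with 1457 and 2001 reads in control, 533 and 2662 in HS. In normalized counts, miR-142a-5p was highest in control replicate 2 and miR-223-3p in HS replicate 1. The 5 serum and red cell miRNAs, which include miR-16-5p, summed to 139 and 229 normalized counts in control, 346 and 222 in HS. Most of that order came from miR-122-5p, a liver miRNA, with 27 and 175 reads in control, 96 and 206 in HS, and without it the sums were 116 and 110.5 in control, 114 and 85.6 in HS. MiR-16-5p itself had its lowest count, 6 reads, in HS replicate 1. The part of these cell types or of the depth of HS replicate 1 in the members' values was not tested.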

How the data were processed

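Small RNA from exosomes was sequenced in 2 control and 2 HS libraries. According to the methods, the authors trimmed adapters, removed short and low-quality reads, mapped with bowtie and counted miRNAs; the version and genome build are not given in the sources used here. The deposited signal, headed RPKM, held read counts divided by a size factor: 100% of values above 0 were whole multiples (within 0.001) of the smallest, and whole reads were recovered by division. Totals ran from 42091 to 121503 reads.

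Groups were compared with limma 3.58.1 (R 4.3.3) on log2(normalized count + 1), which understates changes of low miRNAs, over miRNAs with at least 10 reads, with Benjamini-Hochberg adjustment. EdgeR 4.0.16 and DESeq2 1.42.0 on recovered reads, other scalings, pseudocounts and filters, the replicate block and leaving out each library were alternatives. The limma step was tested on simulated data. The named miRNAs are the 7 members, their opposite arms, let-7 of the shared clusters, miR-351-5p with the miR-125 seed, and the 5 nearest in pattern. Members and lists were chosen with earlier results of these data known. Permuting 2 and 2 libraries exactly allows no p under 0.05. Coordinates come from GENCODE M21, sequences from RefSeq, and tables were made with Python 3.11.15.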

Additional observations from a re-analysis of the deposited data

How the results depend on the processing

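The number of members that met the study's criterion was 0 in limma and 2 in edgeR and in DESeq2, which called 32 and 29 miRNAs in all, and it ran from 0 to 3 with each library left out (3 without HS replicate 2, and 0 without any of the other 3). Over all tested miRNAs the number was 31, and it was 16 with a pseudocount of 5, 12 with edgeR's filterByExpr and 19 with the replicate block. With each library left out it ran from 26 to 113 (without HS replicate 2), and without control replicate 1 it was 9 in edgeR and 13 in DESeq2. The block called 0 members. Libraries with the same number deviated from their group means with a correlation of -0.097 over 376 miRNAs, and nothing in the labels says that a number marks a shared culture or day, so they share only a number. Of 119 log2 fold changes of members under other settings, 104 kept direction and side of the criterion, 7 newly met it and 8 changed sign. Signs changed for miR-99a-5p scaled by the total of listed reads (-0.089) and with libraries left out (-0.018 to 0.053), for miR-125b-5p in edgeR (-0.18), in DESeq2 (-0.21) and with libraries left out (-0.89 to 1.12), and for miR-10b-5p in the settings chosen after the data had been seen, edgeR and DESeq2 without control replicate 1 (0.35 and 0.010). The cause was not tested. The difference in the members' share of reads ran from -1.70 to -0.166 percentage points with libraries left out. The values of 5 members in HS replicate 1 rest on 3 to 7 reads of each, so their counting error is wide, and the part of depth in them was not tested. With a library left out, the lone library of its group was assumed to vary like the other group.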
